A study of Homo sapiens with 12 samples.

Results

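The genes described here are 10 neuronal microtubule-associated genes: MAP2, MAPT, MAP1A, MAP1B, DCX, TUBB3, STMN1, STMN2, DPYSL2 and DPYSL3. They were taken as every probe set annotated to only 1 of these symbols, which gave 26 of 54675 probe sets on the array. The list was picked on differences in signal between the 2 cell lines that were already known, so line differences of these genes are given as values without a test. Their response to the electric field was tested. The study placed 2 human lung adenocarcinoma lines, CL1-5 and CL1-0, under a direct-current electric field of physiological strength and asked how gene expression responds. CL1-5 is a more invasive subline of CL1-0, so a difference between them is one between 2 related cultures. There were 4 groups of 3 arrays: CL1-5 at 300 mV/mm for 2 h, CL1-5 at 0 mV/mm, CL1-0 at 300 mV/mm and CL1-0 at 0 mV/mm. All groups grew overnight in a microfluidic chip, then spent 2 h with or without current (exposed and unexposed below), both in medium without serum, and were taken off with trypsin. The labels call the 3 arrays of a group biological replicates but do not say whether they came from separate cultures. If they did not, the spread may be partly technical.

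Microtubules are polymers of alpha and beta tubulin that grow and shrink at their ends. In neurons a set of proteins stabilises and bundles them: MAP2 mainly in dendrites, tau (MAPT) mainly in axons, MAP1A and MAP1B in both, and doublecortin (DCX) in migrating young neurons. TUBB3 is the beta tubulin isotype used as a neuronal marker. Stathmins (STMN1, STMN2) bind tubulin dimers and favour disassembly, and collapsin response mediator proteins (DPYSL2, also called CRMP2, and DPYSL3, also called CRMP4) bind tubulin or microtubules and act in axon growth and guidance. Several of these genes are also transcribed outside the nervous system, and TUBB3 and STMN1 are often measured in carcinomas.

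Promoter sequence is shown for 4 members whose line differences take different forms, so that the windows can be set beside the values below: MAP2 and MAP1B were lower in CL1-5, DPYSL3 was higher, and TUBB3 overlapped between the lines. Each window covers 250 bases before and 50 after an annotated start (RefSeq, GRCh38.p14) and is the most upstream one of its gene in the table used, which held 17 windows of 7 members. The windows are MAP2 at chr2:209579082-209579381 on the plus strand, MAP1B at chr5:72107225-72107524 on the plus strand, DPYSL3 at chr5:147510019-147510318 on the minus strand, and TUBB3 at chr16:89921675-89921974 on the plus strand. They are written 5′ to 3′, and capitals mark CG dinucleotides.
MAP2: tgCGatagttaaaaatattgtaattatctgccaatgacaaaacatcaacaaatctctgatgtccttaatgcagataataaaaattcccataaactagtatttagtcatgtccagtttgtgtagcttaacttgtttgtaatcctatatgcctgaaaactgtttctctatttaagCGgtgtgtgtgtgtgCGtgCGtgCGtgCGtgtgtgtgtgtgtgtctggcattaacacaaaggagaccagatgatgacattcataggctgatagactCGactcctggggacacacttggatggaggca
MAP1B: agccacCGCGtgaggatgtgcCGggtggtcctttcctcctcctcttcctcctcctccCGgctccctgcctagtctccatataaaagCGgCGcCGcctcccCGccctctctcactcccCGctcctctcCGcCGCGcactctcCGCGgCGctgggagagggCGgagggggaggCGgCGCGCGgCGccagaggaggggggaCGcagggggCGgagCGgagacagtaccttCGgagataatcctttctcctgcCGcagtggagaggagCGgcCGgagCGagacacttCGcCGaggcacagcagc
DPYSL3: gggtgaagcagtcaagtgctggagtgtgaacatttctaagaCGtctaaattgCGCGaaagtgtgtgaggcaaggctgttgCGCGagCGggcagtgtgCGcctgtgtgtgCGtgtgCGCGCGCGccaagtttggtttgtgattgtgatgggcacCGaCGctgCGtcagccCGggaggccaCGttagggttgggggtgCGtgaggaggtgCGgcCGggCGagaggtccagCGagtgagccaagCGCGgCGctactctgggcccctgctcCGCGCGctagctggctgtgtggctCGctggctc
TUBB3: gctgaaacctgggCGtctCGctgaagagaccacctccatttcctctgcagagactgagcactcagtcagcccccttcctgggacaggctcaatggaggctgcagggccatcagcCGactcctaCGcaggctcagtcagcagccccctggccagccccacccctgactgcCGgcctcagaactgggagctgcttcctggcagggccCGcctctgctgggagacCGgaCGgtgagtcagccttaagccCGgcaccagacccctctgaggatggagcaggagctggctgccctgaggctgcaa
The MAP2 window held 7 CG dinucleotides, the MAP1B window 31, the DPYSL3 window 29 and the TUBB3 window 9, against a median of 14 over 35116 promoters of this length. A second, downstream TUBB3 window held 47, more than 97.6% of those promoters. The other MAP2 windows held 10 and 5, the other MAP1B window 12 and the other DPYSL3 window 27. The GC box letters GGGCGG, which contain a CG themselves and were searched on both strands, as were the motifs named next, occurred 3 times in the MAP1B window. They occurred in none of the MAP2 windows and not in the DPYSL3 and TUBB3 windows shown, and 45.0% of all promoters held them. The other windows of MAP1B, DPYSL3 and TUBB3 held them 2, 3 and 5 times. The E-box letters CAGGTG (20.6% of all promoters), the partial RE1 letters TTCAGCACC (0.376%) and TATAAA (11.5%) were absent from the 4 windows, except TATAAA in that of MAP1B. These are matches of letters in fixed windows, and methylation or factor binding was not measured.

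The values are signals in linear intensity units, and every array had a median between 60.7 and 72.4. Signals of different probe sets are not comparable as levels, so each is described only against that array median and between arrays. Replicate 1 of all 4 groups stood apart from replicates 2 and 3: the spike-in control dap gave 1.37 to 13.3 on the 4 replicate 1 arrays, against 1644 to 2333 on the other 8, and 18S ribosomal RNA 49.7 to 134.1 against 5577 to 8406. The 3′ to 5′ signal ratio of ACTB was 1.26 to 1.54 on the replicate 1 arrays and 1.21 to 1.32 on the others. Of the epithelial and lung markers, KRT7, KRT8, KRT18, MUC1, NKX2-1 and SFTPB exceeded the array median on all 12 arrays. EPCAM, KRT19 and SCGB1A1 were below it on every CL1-5 array. CDH1 exceeded it on 3 CL1-5 arrays and SFTPC on 2, against 6 and 4 in the other line. NAPSA exceeded it on every CL1-5 array and on 4 arrays of the other line. In CL1-5 the lung markers NKX2-1 and SFTPB began near the array median, at 70.5 to 167 and 77.4 to 202. They read 129 to 290 and 140 to 284 in the other line. In these bulk samples, fewer cells of a type and less RNA per cell cannot be told apart.

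Of the 26 probe sets, 19 were above the array median on at least 3 arrays and 10 on all 12, while 7 passed it on 0 to 2 arrays. This left 9 of 10 genes for the gene-level fit, all but DCX. MAP2 and STMN2 passed only through CL1-0, each above the array median on 0 CL1-5 arrays. The filter thus favoured a line difference for such genes, although the arrays of the lines still overlapped for STMN2.

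**Figure D1:**
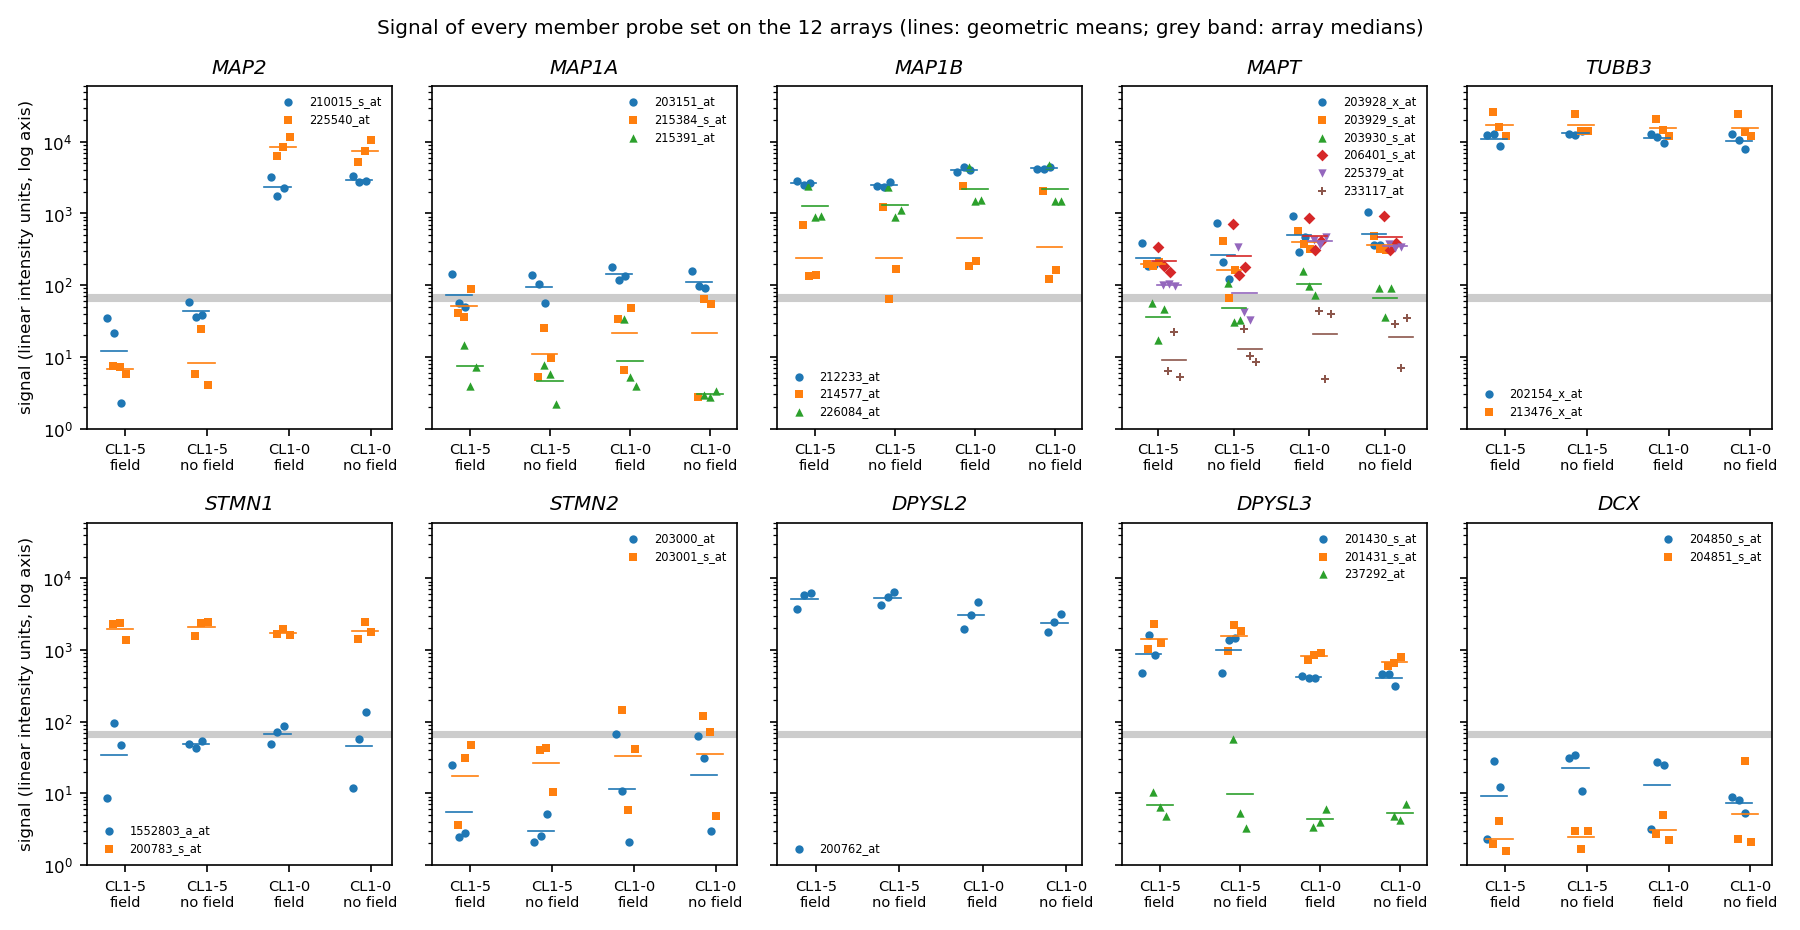
Signal of the 26 probe sets (linear intensity units on a log axis) on each of the 12 arrays, 1 panel per gene, with points for arrays, short lines for geometric means of 3 arrays and a grey band for the array medians of 60.7 to 72.4. MAP2 lies below the band in all CL1-5 arrays and at 1748 or more in all CL1-0 arrays, TUBB3 lies at 7812 or above on every array, and DCX lies below the band throughout.

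MAP2 separated the lines most widely. The probe set 225540_at read 7.51, 7.11 and 5.80 in exposed CL1-5 and 5.82, 24.7 and 4.01 in unexposed CL1-5. It read 6412, 8414 and 11574 in exposed CL1-0 and 5272, 7462 and 10633 in unexposed CL1-0. All 6 CL1-5 arrays were below the array median and all 6 CL1-0 arrays far above it, so only a bound on the ratio is meaningful. After every value below the array median was set to that median, MAP2 was at least 112-fold lower in unexposed CL1-5 than in unexposed CL1-0, and at least 130-fold lower with the field. The other probe set, 210015_s_at, gave the same picture: 34.7, 21.3 and 2.26 in exposed CL1-5 and 57.6, 36.2 and 38.7 in unexposed CL1-5, against 3264, 1748 and 2265 in exposed CL1-0 and 3295, 2720.5 and 2855 in unexposed CL1-0. Its bounds were 44.1-fold lower without the field and 35.7-fold lower with it.

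MAP1B, the large MAP of growing axons, was transcribed well above the array median in both lines and was moderately lower in CL1-5. Its most even probe set, 212233_at, read 2816, 2475 and 2641 in exposed CL1-5 and 2426, 2308 and 2761 in unexposed CL1-5, against 3840, 4477 and 4021 in exposed CL1-0 and 4210, 4149 and 4460 in unexposed CL1-0. No CL1-5 array reached the lowest CL1-0 array. The log2 difference, CL1-5 minus CL1-0, was −0.78 ± 0.17 without the field and −0.64 ± 0.17 with it (SE of the fit, n = 3 arrays a group, as for all differences below). The probe set 226084_at gave −0.72 and −0.78, and 214577_at −0.55 and −0.97, but the arrays of the lines overlapped for both, and replicate 1 was far higher than the rest of its group. In replicates 2 and 3 without the field, 214577_at read 64.1 and 167.7 in CL1-5, against 122.2 and 162.6 in CL1-0, which also overlap. Read within a replicate number, the difference of 226084_at was negative in all 6 pairs of arrays, from −0.99 to −0.43. Its sister gene MAP1A, a MAP of mature neurons, lay close to the array median. The probe set 203151_at read 143, 55.7 and 49.5 in exposed CL1-5 and 139, 104 and 56.7 in unexposed CL1-5, against 182, 116 and 134 in exposed CL1-0 and 157, 98.2 and 90.0 in unexposed CL1-0. The lines overlapped, with differences of −0.95 ± 0.51 with the field and −0.25 ± 0.51 without it. The other MAP1A probe sets, 215384_s_at and 215391_at, reached the array median on 2 and 0 arrays.

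MAPT, which encodes tau, had lower means in CL1-5 in all 6 of its probe sets, both with and without the field, but the size depended on the probe set. The widest gap was in 225379_at, which read 101, 105 and 97.8 in exposed CL1-5, against 427, 365 and 466 in exposed CL1-0. In unexposed cells it read 340, 42.2 and 33.0 in CL1-5, against 374, 328 and 345 in CL1-0. The lines did not overlap under the field, whereas without it replicate 1 of CL1-5 stood within the CL1-0 range. The log2 differences were −2.05 ± 0.66 with the field and −2.16 ± 0.66 without it, where the 3 same-numbered pairs gave −0.14, −2.96 and −3.39. The probe set that represents MAPT in the gene-level fit, 203928_x_at, showed less: 390, 188 and 190 in exposed CL1-5 and 740, 208 and 124 in unexposed CL1-5, against 920, 291 and 472 in exposed CL1-0 and 1038, 364 and 365 in unexposed CL1-0. Its differences were −1.06 ± 0.65 and −0.95 ± 0.65 with and without the field, and the arrays overlapped in both. The _x_at ending means that some of its probes may also match other sequences, so this set is uncertain. Under the field 203929_s_at and 203930_s_at did not overlap between the lines (−1.02 and −1.54), 206401_s_at did (−1.17), and 233117_at was below the array median on all 12 arrays. DCX was below the array median on all 12 arrays with both of its probe sets, with a highest signal of 34.0 for 204850_s_at and 28.5 for 204851_s_at.

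TUBB3, the beta tubulin of neurons, had signals far above the array median on all arrays and overlapped between the lines. The probe set 213476_x_at read 25788, 16092 and 12196 in exposed CL1-5 and 24645, 13967 and 14184 in unexposed CL1-5, against 20787, 14434 and 12005 in exposed CL1-0 and 24099, 13684 and 11888 in unexposed CL1-0. The highest value of every group was replicate 1, and the lines differed by 0.16 ± 0.35 with the field and 0.11 ± 0.35 without it. The probe set 202154_x_at ranged from 8594 to 14334 in CL1-5 and from 7812 to 12921 in CL1-0, with differences of −0.02 ± 0.23 with the field and 0.36 ± 0.23 without it. Both sets carry the _x_at ending, and beta tubulin genes are close in sequence, so signal from other isotypes cannot be told apart from TUBB3.

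STMN1, the stathmin of dividing cells, also overlapped between the lines. The probe set 200783_s_at read 2318, 2415 and 1396 in exposed CL1-5 and 1547, 2413 and 2467 in unexposed CL1-5, against 1691, 1941 and 1635 in exposed CL1-0 and 1421, 2436 and 1796 in unexposed CL1-0. The differences of 0.18 ± 0.28 with the field and 0.19 ± 0.28 without it were smaller than their SE. The second set, 1552803_a_at, varied between 8.57 and 136.8 and exceeded the array median on 4 arrays. STMN2, the neuronal stathmin known as SCG10, was at or under the array median on most arrays. The probe set 203001_s_at read 3.65, 31.2 and 46.9 in exposed CL1-5 and 39.9, 43.3 and 10.5 in unexposed CL1-5, against 147, 5.81 and 40.9 in exposed CL1-0 and 121, 72.6 and 4.88 in unexposed CL1-0. Of these 12 values 3 exceeded their array median, all in CL1-0, and 2 of them were replicate 1. The set 203000_at was below it on all 12 arrays.

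The 2 collapsin response mediator genes were higher in CL1-5, the reverse of MAP2, MAP1B and MAPT. DPYSL2, by its single probe set 200762_at, read 3715, 5939 and 6264 in exposed CL1-5 and 4178, 5506 and 6509 in unexposed CL1-5, against 1936, 3070 and 4670 in exposed CL1-0 and 1765, 2478 and 3138 in unexposed CL1-0. Without the field no array overlapped and the log2 difference was 1.15 ± 0.34, or 2.22-fold. With the field it was 0.77 ± 0.34, or 1.71-fold, and replicate 1 of CL1-5 fell below replicate 3 of CL1-0, although CL1-5 was higher in every pair of the same number, by 0.94, 0.95 and 0.42. DPYSL3 read 1038, 2329 and 1237 in exposed CL1-5 and 960, 2237 and 1836 in unexposed CL1-5 with 201431_s_at, against 733, 862 and 897 in exposed CL1-0 and 590, 652 and 794 in unexposed CL1-0. Every CL1-5 array was above every CL1-0 array, with differences of 0.80 ± 0.35 with the field and 1.23 ± 0.35 without it. The set 201430_s_at gave 1.05 ± 0.46 and 1.27 ± 0.46, again without overlap, but the gap of replicate 1 was small: 476 in CL1-5 against 437 in CL1-0 with the field, and 476 against 462 without it. The third set, 237292_at, was below the array median on all arrays.

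**Figure D2:**
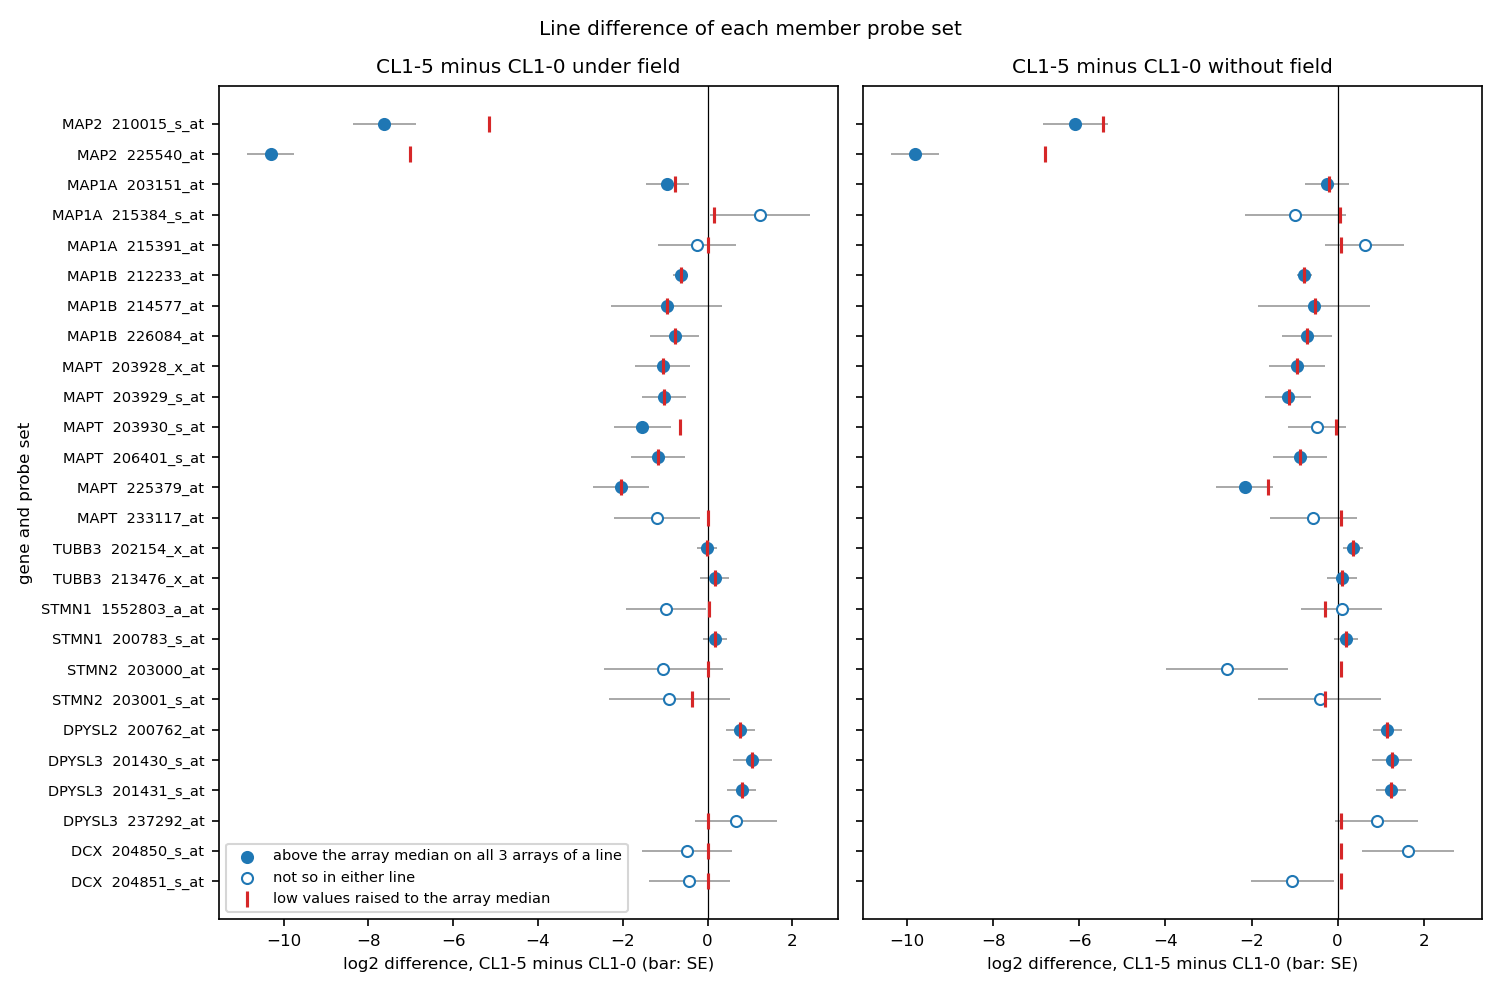
Log2 difference, CL1-5 minus CL1-0, of each of the 26 probe sets under the field (left) and without it (right), with the SE of the fit as bars. Filled circles mark sets above the array median on all 3 arrays of a line and red ticks the difference after values below the array median were raised to it. MAP2 lies furthest to the left at −10.30 and −9.81 and at −7.02 and −6.81 after low values were raised, while the DPYSL2 set and the filled DPYSL3 sets lie to the right of 0 in both panels.

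Among the 9 genes fitted, each by 1 probe set, 3 did not overlap between the lines in the same direction in both settings (MAP2, MAP1B and DPYSL3), against 24.9% of all 13882 genes. Without the field 2 were higher in CL1-5 without overlap, DPYSL2 and DPYSL3, where 16.1% of all genes were, and 2 were lower, MAP2 and MAP1B, where 17.9% were. Under the field the numbers were 1 higher, against 16.8% of all genes, and 2 lower, against 19%. The median difference of the 9 genes was −0.64 with the field and −0.25 without it, beside −0.08 and −0.03 over all genes. The genes were picked with this contrast known, so nothing is read from these shares.

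The field did not change any of the 10 genes past the test. In CL1-5 the estimates of the 9 genes fitted ran from −0.59 for STMN2 to 0.08 for MAP1B on the log2 scale, exposed minus unexposed, and in CL1-0 from −0.10 for STMN2 to 0.35 for MAP1A. By limma with Benjamini-Hochberg adjustment over all genes, 0 of 9 passed an adjusted p of 0.05 in CL1-5, in CL1-0, on average over the lines or in the difference between them. Over all 13882 genes the share called was likewise 0% in each, with 1.86%, 0.958%, 0.98% and 1.08% at an unadjusted p of 0.05, a level that none of the 9 genes reached. The median change of the 9 was −0.13 in CL1-5 and −0.04 in CL1-0, beside −0.01 and 0.01 over all genes.

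How large a change could have gone unseen differed between the members. For MAP1B the 95% interval of the field effect was 0.835 to 1.34-fold in CL1-5 and 0.757 to 1.22-fold in CL1-0. For TUBB3 it was 0.597 to 1.72-fold and 0.573 to 1.65-fold, and for STMN1 0.617 to 1.45-fold and 0.621 to 1.46-fold. A field effect of 2-fold lies outside these intervals. MAP2 in CL1-0, where it is transcribed, had an interval of 0.492 to 2.65-fold, and that of MAPT was 0.357 to 2.64-fold. STMN2, with signals mostly below the array median, had the widest, 0.0992 to 8.80-fold in CL1-0. These intervals cover each gene alone and not the 9 together.

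Same-numbered arrays deviated together, although replicates 2 and 3 also correlated across numbers, so their pairing is uncertain. The replicate number was also fitted as a block. It made no gene pass the adjusted test in any of the 4 field comparisons, while genes at an unadjusted p of 0.05 became 7.1% of all in CL1-5, 2.29% in CL1-0, 3.12% for the average and 4.6% for the difference. DPYSL2 in CL1-0 was the 1 member at that level, with 0.34 ± 0.14 and an unadjusted p of 0.0293 that did not hold after adjustment. Its signal was higher in the exposed array of all 3 pairs, by 0.13, 0.31 and 0.57. MAP2, MAP1A and DPYSL3 also had 3 of 3 pairs higher in exposed CL1-0, by 0.12 to 0.28 for MAP2, 0.22 to 0.58 for MAP1A and 0.18 to 0.40 for DPYSL3, and none of these passed the test. In CL1-5 no member moved one way in all 3 pairs with the probe set that represents it.

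Fitted over all 54613 probe sets without a filter, 0 of the 26 passed the adjusted test in any field comparison, and 0% of all probe sets did. With the replicate block again 0 of 26 passed, where 1 probe set of all did in CL1-0 (0.00183%). The lowest unadjusted p was that of MAP2 210015_s_at in CL1-5, with −1.86 ± 0.75 and a limma p of 0.0267, or −1.86 ± 0.58 and 0.00638 with the block (adjusted p = 0.80), and it was lower in the exposed array of all 3 pairs. Of all probe sets in that comparison, 2.89% had an unadjusted p under 0.05, or 6.22% with the block. All 6 of its values were below the array median, at 34.7, 21.3 and 2.26 in exposed and 57.6, 36.2 and 38.7 in unexposed cells. The other MAP2 set gave −0.30 ± 0.56 in CL1-5 in the gene-level fit. The difference of the field effect between the lines, CL1-5 minus CL1-0, was largest for MAP1A at −0.70 ± 0.69 (unadjusted p = 0.328 by limma, not past the adjusted test).

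**Figure D3:**
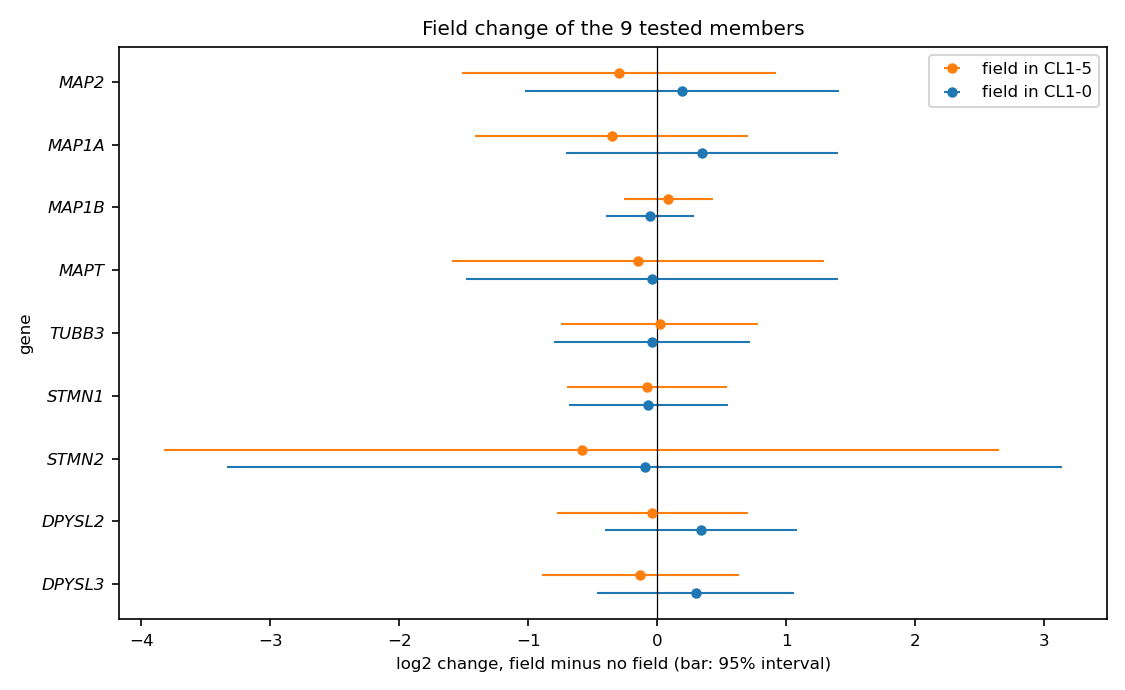
Log2 change with the field, exposed minus unexposed, of the 9 genes fitted, in CL1-5 (orange) and CL1-0 (blue), with 95% intervals as bars. Every interval includes 0, the narrowest are those of MAP1B and the widest those of STMN2.

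Replicate 1 was the highest array of its group in all 4 groups for 7 of the 26 probe sets and the lowest in all 4 for 2. The share over all probe sets was not counted, so whether these numbers are particular to these genes was not tested. For MAP1B 214577_at, replicate 1 was the highest array of all 4 groups, at 689 in exposed CL1-5, 1218 in unexposed CL1-5, 2396 in exposed CL1-0 and 2076 in unexposed CL1-0, while the other 8 arrays read 64.1 to 220. The mean ratio was 10.1-fold. For MAP1B 226084_at it was 2.76-fold and for 212233_at, a set for the same gene, 1.02-fold. MAPT 203928_x_at and 206401_s_at were 2.86-fold and 2.79-fold higher in replicate 1, MAP1A 203151_at 1.86-fold and TUBB3 213476_x_at 1.76-fold, in all 4 groups each. DPYSL2 was lower in replicate 1 of all 4 groups, by 1.64-fold on average, and DPYSL3 201431_s_at was too, with a mean log2 difference of −0.58. Probe sets of 1 gene thus moved unequally between the replicate 1 arrays and the others, which also differed in spike-in and ribosomal RNA signal as given above, and the part of these in the differences was not tested. With replicates 2 and 3 alone, the line differences without the field were −9.81 for MAP2, −0.77 for MAP1B, −1.18 for MAPT, 1.10 for DPYSL2 and 1.49 for DPYSL3.

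**Figure D4:**
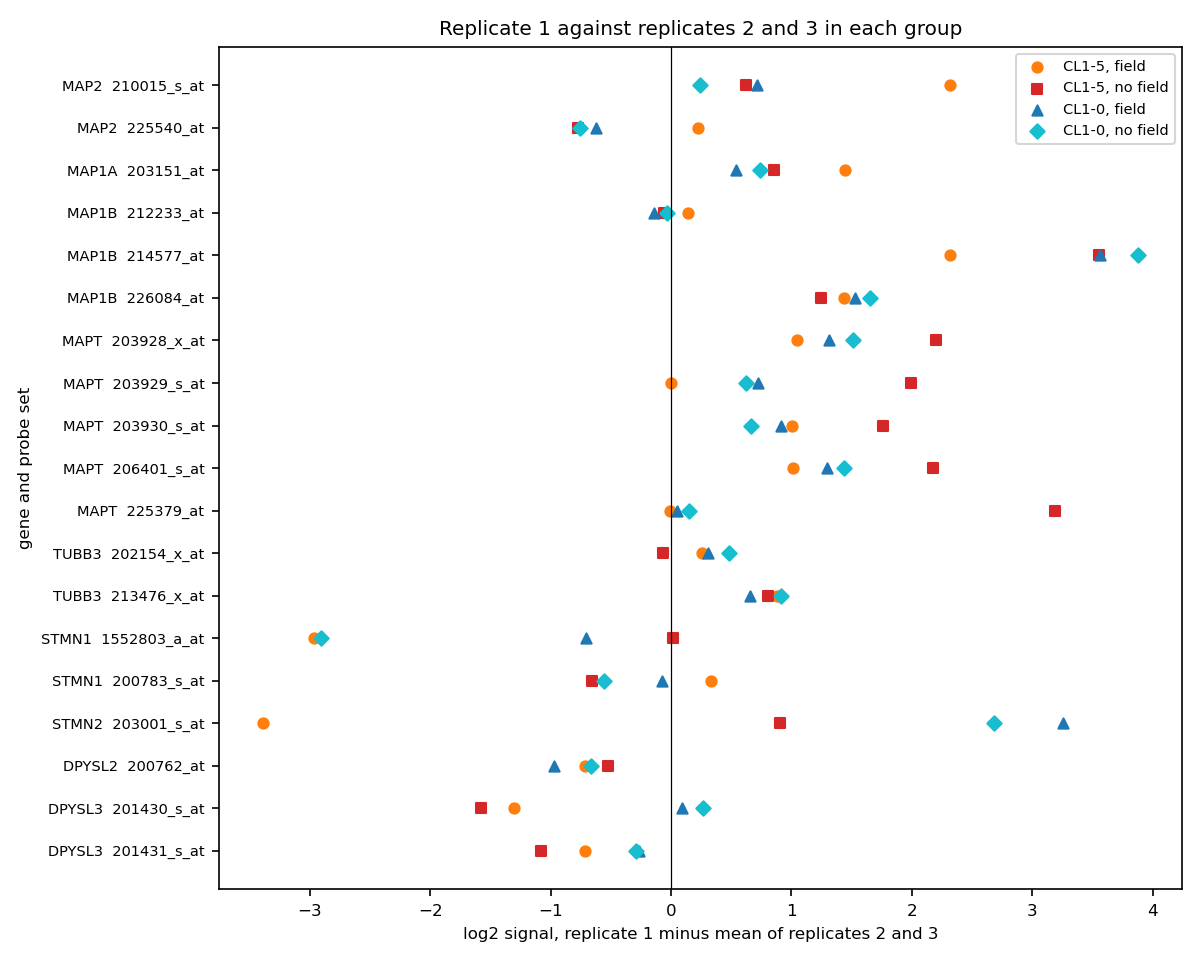
Log2 signal of replicate 1 minus the mean of replicates 2 and 3 within each of the 4 groups, for the 19 probe sets that passed the filter on low values. MAP1B 214577_at lies furthest to the right, between 2.32 and 3.88 in the 4 groups, MAP1B 212233_at lies within 0.15 of 0, and DPYSL2 lies left of 0 in all 4 groups.

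Genes of the same pathway were read from 12 further lists with 260 genes on the array, 214 of them tested. In these lists the lines were compared with limma, since the lists, unlike the 10 genes, were written by pathway and cell type. Results of these data were known when they were written, however. Their shares are given as a description, and nothing more is read from them. Over all 13882 genes, 9.03% were higher and 8.93% lower in unexposed CL1-5 than in unexposed CL1-0 at an adjusted p of 0.05, and 9.81% and 9.63% under the field. With the replicate block these shares became 16.7% and 18.8% without the field (35.5% in either direction, against 18% without the block), and 17.3% and 20.8% with it (38.1% against 19.4%). The limit on genes that passed the filter only through the line where they are high, with under 3 arrays above the median in the other, holds here too. Without the field it covers 337 of the 1253 higher and 228 of the 1239 lower calls over all genes. In the lists it covers 4 of 10 lower and 2 of 3 higher calls among neuronal markers and 1 lower call each among structural proteins, kinases and phosphatases, motors, regulators and epithelial markers, and such genes are named below without a p. For the field, 0 of the 214 passed limma's adjusted test in either line, over the lines or between them, and 8, 0, 4 and 1 had an unadjusted p under 0.05.

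Other structural microtubule proteins differed in both directions. Of 41 tested, 5 were higher and 9 lower in unexposed CL1-5, and 6 higher and 7 lower in exposed CL1-5 (9 became 5 without unexposed CL1-0 replicate 2 or 3). With the replicate block 5 were higher and 12 lower without the field, and 7 and 13 with it. Over all genes 9.03% were higher and 8.93% lower without the field, and 9.81% and 9.63% with it. The block made these 16.7% and 18.8%, and 17.3% and 20.8%. NAV1, a neuron navigator protein of microtubule plus ends, read 2162, 678 and 975 in exposed CL1-5 and 2255, 461 and 725 in unexposed CL1-5, against 153, 91.4 and 157 in exposed CL1-0 and 139, 124 and 166 in unexposed CL1-0. The log2 difference without the field was 2.68 ± 0.55 (limma adjusted p = 0.00501), and 2 of its 8 probe sets overlapped between the lines there. Under the field 224771_at and 242986_at overlapped as well. MAP7D2, of the MAP7 family that recruits kinesin, rose by 2.64 ± 0.42 (adjusted p = 0.000966), and MAPRE2, the end-binding protein EB2, fell by 2.06 ± 0.27 (adjusted p = 0.000207). For MAPRE2 the other 2 probe sets overlapped between the lines without the field, and under it 211556_at did, while 213489_at did not (−3.10).

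Among paralogs of the stathmins and collapsin response mediators, CRMP1 was lower in CL1-5, where DPYSL2 and DPYSL3 were higher, and STMN3 was higher. CRMP1 read 74.7, 167.0 and 101.7 in exposed CL1-5 and 114.9, 137.7 and 112.5 in unexposed CL1-5, against 2523, 1419 and 1736 in exposed CL1-0 and 2547, 1561 and 1482 in unexposed CL1-0. Its difference without the field was −3.90 ± 0.34 (limma adjusted p = 1.13e-05). STMN3, a neuronal stathmin, read 944, 554 and 858 in exposed CL1-5 and 909, 610 and 642 in unexposed CL1-5, against 71.8, 142.5 and 166.6 in exposed CL1-0 and 100.6, 144.7 and 157.3 in unexposed CL1-0. It rose by 2.43 ± 0.36 (adjusted p = 0.000541). These were the 2 of 5 tested paralogs that passed in each setting.

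Tubulins other than TUBB3 passed in both directions. Of 14 tested, 1 was higher and 2 lower in unexposed CL1-5, where 18% of all genes passed, and 1 higher and 3 lower in exposed CL1-5, where 19.4% did. With the replicate block 1 was higher and 7 lower in each setting, where 35.5% and 38.1% of all genes passed. TUBB6, a beta tubulin found in many tissues, was higher in CL1-5 by 0.87 ± 0.24 without the field (limma adjusted p = 0.0235) and by 0.80 ± 0.24 with it (adjusted p = 0.0334). Its call was lost without replicate 2 or 3 of CL1-0 in both settings, without replicate 1 or 3 of CL1-5 in unexposed cells and without replicate 1 or 2 of CL1-5 in exposed cells, where the highest adjusted p was 0.0968 and 0.134. The 2 lower calls in unexposed cells became 4 without exposed CL1-5 replicate 1, and 0 or 1 without any one of the other arrays except exposed CL1-0 replicate 1. The 3 lower calls in exposed cells became 1 without replicate 2 of unexposed or exposed CL1-5 and 0 without exposed CL1-0 replicate 3.

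Among 27 kinases and phosphatases that act on these proteins, 2 were higher and 2 lower in unexposed CL1-5, and 3 and 3 in exposed CL1-5. With the replicate block the numbers were 5 and 4 without the field, and 4 and 7 with it. Over all genes 9.03% were higher and 8.93% lower without the field, and 9.81% and 9.63% with it. The block made these 16.7% and 18.8%, and 17.3% and 20.8%. TAOK1, a kinase that activates the MARK kinases of tau, was below the array median on all CL1-5 arrays, at 3.26 to 33.9, against 1051 to 3134 in CL1-0, and was at least 23.6-fold lower without the field. PPP3CA, the catalytic subunit of calcineurin, a tau phosphatase, rose by 2.52 ± 0.32 (limma adjusted p = 0.000188). It kept its call without any one array, whereas of the counts without the field the higher one was 1 without replicate 1 or 2 of unexposed CL1-0 or replicate 2 or 3 of any of the other groups, and the lower one was 1 without replicate 2 or 3 of unexposed CL1-0 or replicate 1 or 2 of unexposed CL1-5. The count of 3 lower with the field became 1 without exposed CL1-0 replicate 2 and 5 without exposed CL1-5 replicate 1. Of 28 genes for tubulin modification, folding and severing, 1 was higher and 5 lower in unexposed CL1-5, and 1 and 4 in exposed CL1-5. The block gave 4 and 8, and 3 and 10. The shares over all genes are those given for the kinases and phosphatases. TBCA, a folding cofactor of beta tubulin, fell by 0.64 ± 0.13 (adjusted p = 0.00584). The 5 lower calls were 2 or 3 without any one array other than exposed CL1-0 replicate 1 and exposed CL1-5 replicate 1. The 1 higher call was lost without unexposed CL1-0 replicate 3, any unexposed CL1-5 array, or replicate 2 or 3 of either exposed group, and the 1 with the field was lost without exposed CL1-0 replicate 2 or 3 or exposed CL1-5 replicate 3 and became 2 without replicate 1 of unexposed CL1-5 or exposed CL1-0.

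Axonal motors that passed were more often lower than higher in CL1-5, in a list written with results of these data known. Of 33 kinesins and dynein genes tested, 1 was higher and 10 lower in unexposed CL1-5, and 1 and 7 in exposed CL1-5, against the shares of 9.03% and 8.93%, and 9.81% and 9.63%, over all genes. With the replicate block 5 were higher and 11 lower without the field, and 6 and 12 with it. The 10 lower calls ranged from 7 to 10 when single arrays were left out. The 1 higher call without the field was lost without replicate 2 or 3 of unexposed CL1-0 and became 2 without replicate 1 of either exposed group, and that with the field was lost without exposed CL1-0 replicate 2 or 3 or exposed CL1-5 replicate 1 and became 2 without unexposed CL1-0 replicate 1. KIF1A, the motor of synaptic vesicle precursors, was below the array median in CL1-5 at 4.44 to 10.0, against 397 to 1036 in CL1-0, at least 10.0-fold lower without the field, but its other 2 probe sets overlapped between the lines. KIF5C, a conventional kinesin heavy chain of neurons, fell by 2.23 ± 0.50 (limma adjusted p = 0.00851) and KIF21A by 2.09 ± 0.41 (adjusted p = 0.00399). Of the other KIF5C sets, 203129_s_at overlapped between the lines without the field (−2.20). The set 1557089_at, which failed the filter, was higher in CL1-5 there without overlap (1.44).

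Among neuronal transcription regulators and neuronal markers, more genes passed as lower than as higher in CL1-5. Of 17 tested regulators, 0 were higher and 6 lower in each setting by limma (1 higher and 8 lower at an unadjusted p under 0.05, 1 higher and 7 or 8 lower with the block, 4 to 6 lower without the field and 6 to 7 with it when single arrays were left out). ID2, an inhibitor of basic helix-loop-helix factors, read 104 to 242 in CL1-5, against 7948 to 10897 in CL1-0, a difference of −5.41 ± 0.29 without the field (limma adjusted p = 3.59e-07). HES6, which promotes neuronal differentiation, fell by 3.34 ± 0.49 (adjusted p = 0.000545) and NKX2-2 by 1.84 ± 0.24 (adjusted p = 0.000208). Of 26 neuronal and neuroendocrine markers tested, 3 were higher and 10 lower in unexposed CL1-5, and 3 and 9 in exposed CL1-5. The 3 higher with the field became 1 without exposed CL1-0 replicate 2 or exposed CL1-5 replicate 3. NEFH, the heavy neurofilament chain, was below the array median on all 6 CL1-5 arrays and at 3018 to 5588 in CL1-0, at least 63.2-fold lower without the field. NEFL and NEFM overlapped between the lines. NEFL read 3936 to 9706 in CL1-5 and 5500 to 16934.5 in CL1-0, and NEFM 37.8 to 115.8 and 3.98 to 90.4. INA was lower, at 307 to 489 in CL1-5 and 1887 to 3122 in CL1-0. BEX1, a small protein abundant in brain, fell by 3.65 ± 0.55 (limma adjusted p = 0.000609). SCG2, a granin of secretory granules, went the other way, at 243 to 642 in CL1-5 and below the array median at 19.4 to 53.5 in CL1-0, at least 4.84-fold higher without the field. Of the 33 such markers on the array, 14 were above the array median on every CL1-5 array and 15 on every CL1-0 array. Their summed signal, which the brightest probe sets dominate, was 17834 to 36969 in CL1-5 and 45646 to 66011 in CL1-0. UCHL1 alone gave 8063 to 15178 in CL1-5 and 24777 to 36331 in CL1-0, while ENO2, the neuronal enolase, went the other way with 1109 to 10907 in CL1-5 and 299 to 814 in CL1-0. RBFOX3, a marker of mature neurons, was below the median on all CL1-5 arrays and close to it in CL1-0, at 54.2 to 80.6, above it on 4 arrays. GAP43, NNAT, GRP, CALCA and SLC17A6 were below it on every array of both lines.

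**Figure D5:**
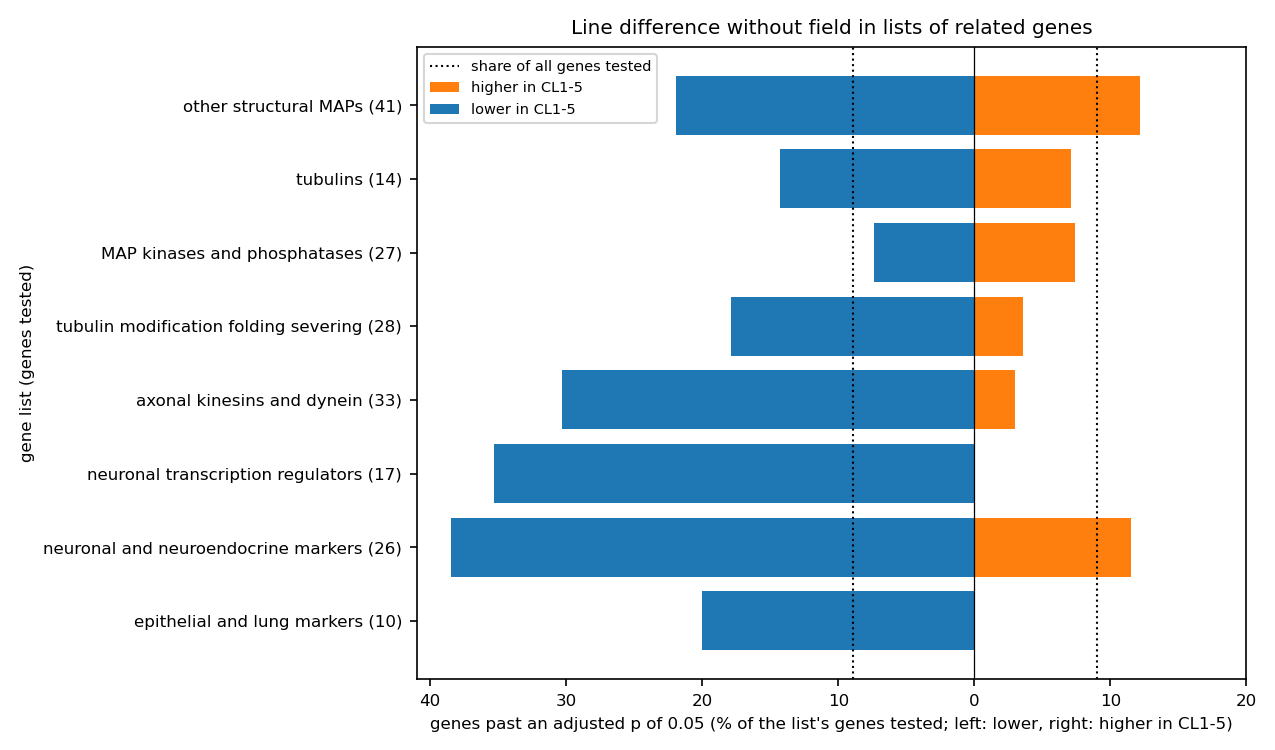
Share of tested genes in 8 lists that were lower (left, blue) or higher (right, orange) in unexposed CL1-5 than in unexposed CL1-0 at an adjusted p of 0.05, with the number of genes tested in brackets and dotted lines at the shares over all genes, 8.93% and 9.03%. The lists of axonal motors, neuronal transcription regulators and neuronal markers extend furthest to the left, with 10 of 33, 6 of 17 and 10 of 26 genes. Of these lower calls 1, 1 and 4 passed the filter only through CL1-0. The lists were written with results of these data known, so the shares are a description.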

How the data were processed

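Biotin-labelled cRNA from 10 µg of total RNA of 12 samples was hybridised to Affymetrix arrays. Signals were deposited on a linear intensity scale and came from MAS5, per the submitters' processing notes, with no version or filter stated there. Trimmed means of the arrays were 500.07 to 500.08, so no further scaling was applied.

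Values under 1 (3691) were set to 1 and taken to log2. Genes with a probe set of 1 symbol that exceeded the array median on at least 3 arrays were kept (13882), each by its set of highest mean, and 31890 probe sets passed that filter. The 4 group means were fitted to 12 arrays in limma (version 3.58.1, moderated with a mean-variance trend; R 4.3.3, and 1.17.8 of the package data.table), at a Benjamini-Hochberg adjusted p of 0.05, in 6 comparisons. The fit was tested on simulated data. The number of arrays limits the precision. "At least" folds set values below the array median to it and are estimates without an error.

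Arrays of the same replicate number correlated at 0.187 or above after group means were removed, so by a threshold of 0.1 the numbers were taken as pairs and fitted as a block beside the unblocked fit; the labels do not state the pairing, and replicate 1 stands apart in every group. Alternatives were 2 normalizations, other filters and low-value rules, averaging over probe sets of a gene, other fits, replicates 2 and 3 alone, and each array left out. The 10 genes and all lists were chosen with earlier results of these data known. Named genes are all 10 members and, per list, up to 4 with the largest line difference among those called in both line comparisons without overlap; only some are printed. The genes most like MAP2 are the 5 with the smallest root-mean-square difference over 12 arrays. Of the 10 members, 7 matched a RefSeq promoter. Probe sets of several symbols were not used.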

Additional observations from a re-analysis of the deposited data

How the results depend on the processing

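None of the gene-level field results on the members changed its side of the threshold: over 806 values under the alternatives, the lowest adjusted p was 0.831 (0.80 over single probe sets with the block), and 111 values changed sign around 0. Genes called over the whole array for the field numbered 0 in every comparison and alternative, except 1 in CL1-0 without exposed CL1-0 replicate 3 (range 0 to 1 over arrays left out). The replicate block, which paired arrays of the same number, made no call on a member, and 4926 genes differed between the lines without the field (2319 higher and 2607 lower in CL1-5) and 5289 with it (2408 and 2881), against 2492 and 2699 without the block. Replicates 2 and 3 alone gave 4284 (2003 and 2281) and 4416 (2068 and 2348). Leaving out single arrays gave 1726 to 2840 and 1838 to 2899. Of 412 line values of the members, 8 moved by more than the SD: for MAP2 to −6.81 and −7.02 with low values raised and to −7.95 and −8.97 with the mean of its probe sets (without and with the field), and under the field to −9.50 with the pseudocount; for MAP1B under the field to −0.79 and for STMN1 to −0.40 with the mean of their probe sets; and for STMN2 to 1.31 with replicates 2 and 3 alone. The last 2 changed sign, as did 11 small values that moved less. The causes were not tested. Signals below the array median limit STMN2, DCX and MAP2 in CL1-5.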

Other observations

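The 5 genes whose signal over the 12 arrays was most like that of MAP2 were PRDX2, SOX2, ID4, KITLG and NR2F1, with root-mean-square log2 differences from its profile of 0.29, 0.35, 0.41, 0.43 and 0.54, where the median over all genes was 3.47. They were picked for this likeness, which is a description over 12 arrays that share 2 lines, and low values were raised to the array median first. PRDX2, a peroxiredoxin that removes peroxides, had a mean signal (39729_at) of 11.99 ± 11.4 in exposed and 14.2 ± 4.2 in unexposed CL1-5, against 7080 ± 3178 in exposed and 6092 ± 2627 in unexposed CL1-0 (SD, n = 3). Another PRDX2 set, 215067_x_at, differed between the lines by only 0.13 with the field and 0.08 without it. ID4, like ID2 an inhibitor of basic helix-loop-helix factors, read 15.0 ± 15.4 and 36.0 ± 13.3 in exposed and unexposed CL1-5, against 5107 ± 235 and 5722 ± 223 in exposed and unexposed CL1-0. KITLG, the ligand of the receptor KIT, read 40.6 ± 33.8 and 54.8 ± 38.4 in CL1-5, against 5343 ± 1450 and 5473 ± 2175 in CL1-0. NR2F1, a nuclear receptor known from cortical patterning in the mouse, read 22.5 ± 14.03 and 34.6 ± 8.4 in CL1-5, against 7875 ± 3340 and 9140 ± 2726 in CL1-0.

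Markers of other cell types were set beside these genes. Of 3 glial genes tested, MBP was higher in CL1-5 by 3.04 ± 0.43 without the field (limma adjusted p = 0.000431) and by 2.88 ± 0.43 with it, while GFAP, S100B and AQP4 were below the array median on all 12 arrays. OLIG1 and OLIG2 were above it on all 12, at 171 to 316 and 170 to 269 in CL1-5, against 79.0 to 156 and 253 to 587 in CL1-0. The summed signal of 7 glial markers was 694 to 1314 in CL1-5 and 510 to 831 in CL1-0. The second glial call, OLIG2 lower under the field (−1.12 ± 0.32, adjusted p = 0.0287 by limma), was lost when any one array of exposed cells other than exposed CL1-0 replicate 2 was left out, and 1 more glial gene was called lower without the field when that array was left out, or higher under the field without unexposed CL1-0 replicate 1. Of 3 leukocyte markers tested 0 passed with limma in either setting or with the replicate block, and 0 had an unadjusted p under 0.05, though 1 was lower under the field with replicates 2 and 3 alone. PTPRC, CD14 and TYROBP were below the median throughout, and the sum of 6 was 189 to 362 in CL1-5 and 225 to 382 in CL1-0. With the block OLIG2 was lower in both settings and OLIG1 higher under the field. Of 7 endothelial and fibroblast markers 0 passed without the field (1 at an unadjusted p under 0.05, and 1 higher without exposed CL1-5 replicate 1) and 1 was higher under it, KDR, which was above the median on 5 CL1-5 arrays and 1 CL1-0 array. CDH5 and VWF were below the median on all 12 arrays, whereas PECAM1 and COL1A1 were above it on all 12. PECAM1, an endothelial adhesion protein, read 174 to 1559 in CL1-5, against 66.9 to 168 in CL1-0, and its 4 probe sets that passed the filter did not overlap between the lines in either setting. The set that represents it was higher by 2.05 ± 0.75 without the field, with a limma adjusted p of 0.0825, or 0.00290 with the block, and by 1.94 ± 0.75 under it, with 0.0946, or 0.00370 with the block. The block thus gave 1 higher and 1 lower call without the field and 2 and 1 with it, the lower one being COL3A1, below the median on every CL1-5 array. The call of KDR was lost without unexposed CL1-0 replicate 2, unexposed CL1-5 replicate 2 or 3, or replicate 1 or 3 of either exposed group. Of 10 epithelial and lung markers 2 were lower in CL1-5 in each setting, EPCAM and CDH1. The call of CDH1 was lost without replicate 2 or 3 of unexposed CL1-0 or unexposed CL1-5, and under the field without replicate 2 or 3 of exposed CL1-0 or replicate 2 of exposed CL1-5, with adjusted p up to 0.123 and 0.0923. Without exposed CL1-0 replicate 1, 1 marker was called higher in the absence of the field. EPCAM, an epithelial adhesion protein, was below the array median in CL1-5 and at least 8.43-fold lower than in CL1-0 without the field; it passed the filter only through CL1-0, so no p is given. With the block KRT8 was also called higher and MUC1 lower without the field.

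The probe set 217714_x_at, annotated to both STMN1 and MIR3917 and therefore left out, read 278, 330.1 and 360.1 in exposed CL1-5 and 133, 348 and 205 in unexposed CL1-5, against 297, 546 and 409 in exposed CL1-0 and 437, 603 and 582 in unexposed CL1-0.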
